A study of Homo sapiens with 4 samples.

Results

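The WNT signalling genes of H1 cells were examined as a set of 47 genes among the 17472 of the deposited table. They are the WNT ligands, the Frizzled (FZD) receptors and LRP co-receptors, the secreted antagonists, the R-spondin system, the cytoplasmic transducers and feedback inhibitors, and the nuclear effectors. Members were taken by gene symbol alone, through family names such as WNT, FZD, SFRP, DKK, RSPO, DACT, LGR and DVL and a short list of single genes. That naming rule matches 70 symbols of GENCODE v29. The other 23, among them WNT1, WNT3A, WNT4, WNT7A, WNT8A, DKK1, RSPO1, RSPO2, RSPO3, WIF1 and SP5, were not analysed here.

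H1 is an established human embryonic stem cell line. Sequencing of poly(A) RNA gave 2 libraries from unmodified H1 cells (WT) and 2 from H1 cells that carried MEK5DD. All 4 came from cells kept in E8, a defined medium with insulin, transferrin, FGF2 and TGF-beta and no WNT protein or WNT inhibitor among its stated components. MEK5DD is MAP2K5 (MEK5), the kinase that activates MAPK7 (ERK5), with 2 residues changed to aspartate. It was delivered by lentivirus, and puromycin selection gave 1 line. No library comes from cells that received a virus without MEK5DD, so delivery, selection and MEK5DD cannot be told apart. The labels do not say whether libraries of a group came from separate cultures, and p-values therefore measure only how these libraries spread, which may be technical.

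WNT proteins are lipid-modified ligands. In the canonical branch a WNT bridges a Frizzled receptor and LRP5 or LRP6, dishevelled proteins are recruited, the complex of AXIN, APC and kinases that destroys beta-catenin is inhibited, and beta-catenin enters the nucleus to act with TCF and LEF factors. Other WNTs act through Frizzleds and ROR or RYK receptors on cell polarity and movement without beta-catenin. Secreted SFRP proteins bind WNTs outside the cell, R-spondins and LGR receptors keep Frizzleds at the surface by restraining RNF43 and ZNRF3, and AXIN2, NKD1 and NOTUM are feedback inhibitors that many tissues switch on in response to WNT. In pluripotent cells canonical WNT activity is known for driving entry into primitive streak and mesendoderm.

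MEK5DD cells had 8.26-fold more WNT3 transcript than WT cells, 3.86-fold more DACT1 and 1.73-fold more FZD5. Levels of SFRP1, FZD1 and FZD2 were 2.77-fold, 2.75-fold and 2.78-fold lower, FRZB was 2.13-fold lower and WNT5A 1.86-fold lower. Of the 47 members, 43 passed the filter of a normalised count of at least 10 in at least 2 libraries, and WNT11, LEF1, FZD9 and RSPO4 fell below it. In limma, 13 of the 43 (30.2%) passed an adjusted p of 0.05, against 14.2% of all 15721 genes tested. The 5 that rose (WNT3, DACT1, FZD5, AXIN1 and FZD4) were 11.6% of the tested members, against 7.69% of all genes. The 8 that fell (FZD2, SFRP1, FZD1, FRZB, WNT5A, NKD1, FZD6 and AXIN2) were 18.6%, against 6.47%. The 2 WT values lay apart from the 2 MEK5DD values in 33 of the 43 (76.7%), against 56.2% of all genes. The median log2 fold change was -0.09 over the tested members and -0.0023 over all genes, and the median size of the change was 0.26 and 0.17. By these counts WNT members moved in both directions, with called genes among ligands, receptors, antagonists and cytoplasmic regulators. None was called among the 2 secretion, 4 R-spondin and 4 nuclear members tested. These are too few for an absence of calls to be told from the 14.2% of all genes. The set was chosen with earlier results of these data known, so its called shares may partly reflect that choice. With edgeR 5 members were called higher and 8 lower, with DESeq2 4 and 6, and neither tool called a member that limma did not.

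**Figure D1:**
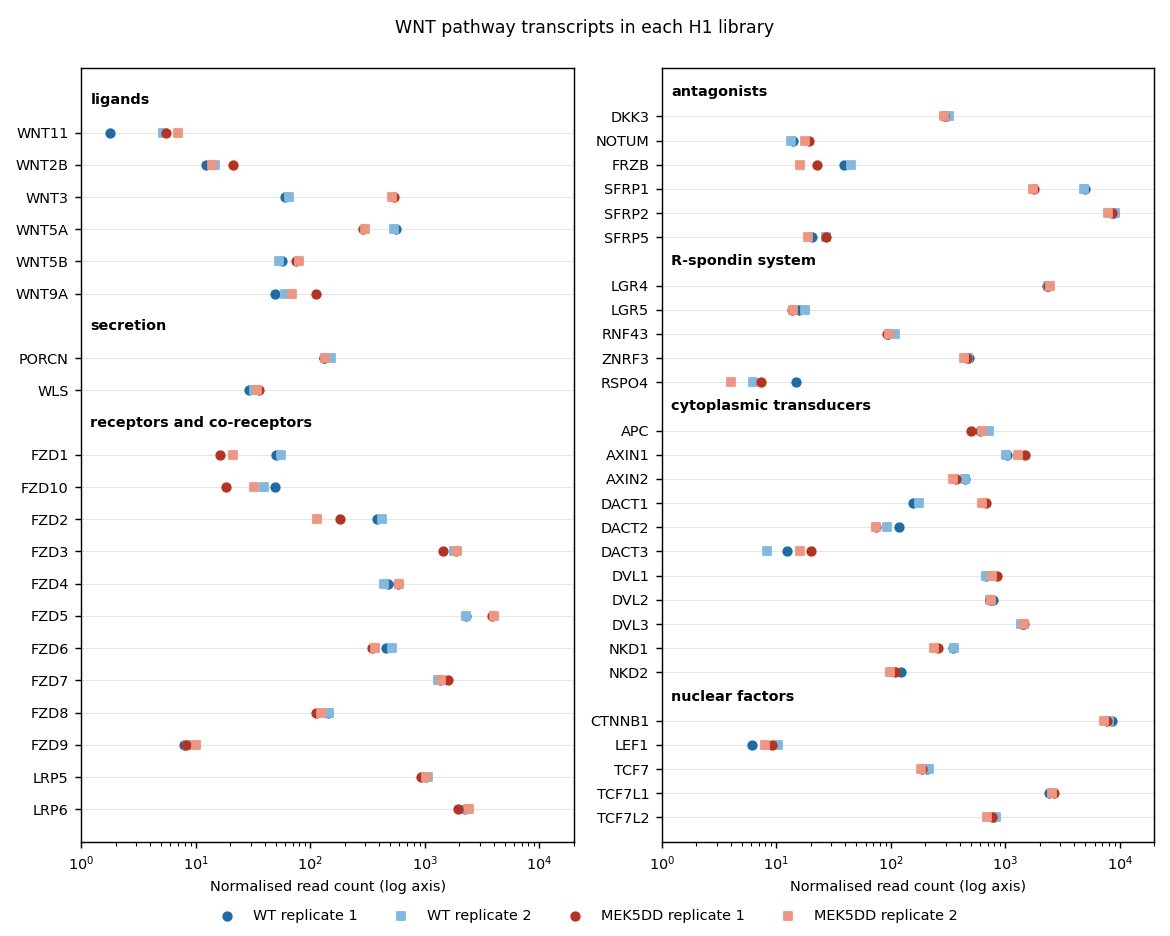
Normalised read counts (log axis) of the 47 members in each of the 4 libraries, WT in blue and MEK5DD in red, with replicate 1 as a circle and replicate 2 as a square. WNT3 stands at 59.9 and 65.6 in WT and at 537 and 513 in MEK5DD, while CTNNB1, LGR4 and TCF7L1 hold nearly the same place in every library.

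Promoter sequence is shown for called members that changed at least 1.5-fold, since the results turn on them, as far as the window before the start site is free of annotated exon. The RefSeq table (GRCh38.p14) matched 33 of the 47 members and 6 of those 8. FRZB is among the 6 but is not shown, since annotated exon covers its whole window. Each stretch lies in the 250 bases before a RefSeq start. Those of FZD5 and WNT5A are the whole window, and those of WNT3, DACT1 and FZD1 stop before a GENCODE exon that reaches into it. WNT3 is chr17:46818761-46818942 on the minus strand, FZD5 is chr2:207769907-207770156 on the minus strand and DACT1 is chr14:58633811-58633966 on the plus strand. WNT5A is chr3:55481399-55481648 on the minus strand and FZD1 is chr7:91264183-91264363 on the plus strand. Sequences run 5′ to 3′ along the gene, and capitals mark matches on either strand to a GC box (its letters are GGGCGG), to the letters CCAAT, or to the core site of TCF and LEF factors, whose letters are CTTTGA.
WNT3: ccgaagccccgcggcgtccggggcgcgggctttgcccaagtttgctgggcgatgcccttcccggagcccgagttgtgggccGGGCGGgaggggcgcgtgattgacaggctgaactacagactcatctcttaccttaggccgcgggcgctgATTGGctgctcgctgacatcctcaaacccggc
FZD5: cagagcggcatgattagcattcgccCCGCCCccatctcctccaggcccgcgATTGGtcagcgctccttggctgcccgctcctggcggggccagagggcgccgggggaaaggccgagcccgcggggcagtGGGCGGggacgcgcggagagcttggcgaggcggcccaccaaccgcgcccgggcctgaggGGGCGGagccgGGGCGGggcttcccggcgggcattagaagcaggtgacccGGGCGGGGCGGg
DACT1: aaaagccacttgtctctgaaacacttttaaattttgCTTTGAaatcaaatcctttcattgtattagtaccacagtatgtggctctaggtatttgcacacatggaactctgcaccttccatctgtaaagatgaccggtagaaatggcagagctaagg
WNT5A: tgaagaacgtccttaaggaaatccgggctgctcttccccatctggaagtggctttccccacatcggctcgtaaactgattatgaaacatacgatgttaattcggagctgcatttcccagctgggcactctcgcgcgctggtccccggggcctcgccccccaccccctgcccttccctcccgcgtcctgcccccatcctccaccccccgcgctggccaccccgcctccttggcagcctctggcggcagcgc
FZD1: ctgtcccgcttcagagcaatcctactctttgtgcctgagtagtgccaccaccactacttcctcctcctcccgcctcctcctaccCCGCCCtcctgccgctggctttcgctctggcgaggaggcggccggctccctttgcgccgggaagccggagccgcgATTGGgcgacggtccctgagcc

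The whole 250-base window of FZD5 held 6 GC boxes, that of WNT3 held 2 and that of FZD1 held 1, and each of these 3 windows also held 1 CCAAT match. The second GC box of WNT3, at -44 to -39, lies past the printed stretch. The nearest GC boxes of FZD5 overlap, at -12 to -7 and -7 to -2 from the start. The FRZB window, which is not shown, held 2 GC boxes and 1 CCAAT match. Over 35116 RefSeq windows of the same length, 42.6% held a GC box and 32.0% a CCAAT match. The DACT1 window held the only TCF/LEF core of the 5, at -214 to -209, a match found in 11.2% of all windows. The WNT5A window held none of the motifs searched, and the window of its other RefSeq start held 1 GC box. The AP-1 site, searched as TGANTCA, was in none of the 5 windows and in 6.57% of all windows. The CRE, searched as TGACGTCA, and the MEF2 and SRF CArG boxes were likewise in none of the 5, and in 1.65%, 2.8% and 1.16% of all windows. CpG counts were 30 for FZD5, 26 for WNT3, 19 for FZD1, 18 for WNT5A and 3 for DACT1, with a median of 11 over all windows. DACT1 has other RefSeq starts further into the gene, whose windows held 33 and 24 CpGs, 2 GC boxes each and no TCF/LEF core. The RefSeq starts used for WNT3 (46818692) and WNT5A (55481398) also lie inside their GENCODE genes. The 5′ ends of those genes are at 46833154 and 55490539. No GENCODE start of FZD5 lies within 100 bases of the start used (207769906). Which start the cells use was not measured. A match describes letters and is not a measured binding site.

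Among the ligands, WNT3 rose and WNT5A fell, and none of the other 3 tested ligands was called. Each direction thus held 20% of the 5 tested ligands, against 7.69% of all genes higher and 6.47% lower. WNT3, a canonical ligand needed for primitive streak formation in the mouse embryo, had normalised counts of 59.9 and 65.6 in WT and 537 and 513 in MEK5DD. The lower MEK5DD library was far above the higher WT library. The log2 fold change was 3.05 (SE 0.13, limma adjusted p = 2.05e-08). Behind it were 68 and 63 recovered reads in WT and 591 and 515 in MEK5DD. The gene lies on chromosome 17, 46762506 to 46833154 (GRCh38, minus strand).

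WNT5A is the best known ligand of the beta-catenin-independent branch. It measured 555 and 538 in WT and 289 and 298 in MEK5DD, and the groups did not overlap. The log2 fold change was -0.90 (SE 0.09, limma adjusted p = 6.47e-05). WNT5A lies on chromosome 3, 55465715 to 55490539 (GRCh38, minus strand), and is overlapped there by the antisense gene WNT5A-AS1. That transcript measured 37.0 and 34.4 in WT and 17.3 and 16.9 in MEK5DD (log2 fold change -1.02, SE 0.29, limma adjusted p = 0.0364), a call that did not hold without WT replicate 1 (0.226) or WT replicate 2 (0.153). The strand setting of the counting was not given in the sources used here. Reads of this pair therefore cannot be told apart.

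The other ligands were at low counts. WNT5B, a relative of WNT5A, measured 56.4 and 53.1 in WT and 74.5 and 78.7 in MEK5DD (log2 fold change 0.48, 95% interval 0.07 to 0.89, limma adjusted p = 0.120). WNT9A measured 49.3 and 60.4 in WT and 112 and 68.8 in MEK5DD (0.67, limma adjusted p = 0.0827). The MEK5DD libraries differed here by more than the distance between the nearest values of the groups, and the gene passed without MEK5DD replicate 2 (adjusted p = 0.000282) and without WT replicate 2 (adjusted p = 0.0317). WNT2B overlapped between groups, at 12.3 to 14.6 in WT and 14.0 to 20.9 in MEK5DD. WNT11 stood at 1.76 to 6.98 in all 4 libraries and was not tested. WNT2B and WNT5B overlap the genes ST7L and FBXL14, and some of their reads may come from those genes.

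The 2 transcripts for WNT secretion had intervals that cross 0 and leave changes in either direction possible. PORCN, the acyltransferase that attaches the lipid to WNT proteins, measured 131 and 151 in WT and 132 and 135 in MEK5DD (log2 fold change -0.08, 95% interval -0.39 to 0.23). WLS, the carrier that brings WNTs to the cell surface, measured 29.1 and 32.3 in WT and 35.4 and 33.9 in MEK5DD (0.17, 95% interval -0.39 to 0.74). Neither was called by limma, against 14.2% of all genes. An unadjusted limma p under 0.05 was found for 0 of the 2, against 4364 of all 15721 genes.

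Frizzled receptors carried the most calls of any family, 5 of 9 tested (55.6%, against 14.2% of all genes), and had the most members tested. Of the 9, 2 were higher (22.2%, against 7.69%) and 3 lower (33.3%, against 6.47%). FZD5, a receptor linked to canonical signalling, measured 2264 and 2273 in WT and 3835 and 4039 in MEK5DD. The MEK5DD values were all above WT, by a log2 fold change of 0.79 (SE 0.06, limma adjusted p = 6.85e-06). FZD4, which also receives the non-WNT ligand norrin, measured 474 and 441 in WT and 584 and 590.0 in MEK5DD. Its rise was smaller (log2 fold change 0.36, SE 0.09, limma adjusted p = 0.0183), and it was not called without WT replicate 1 (0.0712) or WT replicate 2 (0.250). FZD5 lies on chromosome 2, 207762586 to 207769563, and FZD4 on chromosome 11, 86945679 to 86955391 (GRCh38, minus strand). FZD4 overlaps PRSS23 on the opposite strand.

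FZD2 and FZD1, closely related receptors, fell by similar amounts from different levels. FZD2 measured 379.6 and 425 in WT and 182 and 114 in MEK5DD. The MEK5DD libraries stood apart from each other but both were below WT (log2 fold change -1.48, SE 0.18, limma adjusted p = 0.000205). FZD1 measured 50.2 and 55.2 in WT and 16.4 and 20.9 in MEK5DD, which is 18 and 21 recovered reads in the MEK5DD libraries. Its log2 fold change was -1.46 (SE 0.27, limma adjusted p = 0.00361). FZD6, a receptor best known for planar cell polarity, measured 454 and 511 in WT and 345 and 367 in MEK5DD (log2 fold change -0.44, SE 0.10, limma adjusted p = 0.0126). Without WT replicate 2 its adjusted p was 0.202, and it overlaps the antisense gene BAALC-AS1. FZD2 is a short gene on chromosome 17, 44557459 to 44559570, and FZD1 lies on chromosome 7, 91264364 to 91271326 (GRCh38, plus strand).

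The remaining Frizzleds and the co-receptors were not called. FZD7, an abundant Frizzled of pluripotent cells, measured 1351 and 1295 in WT and 1581 and 1384 in MEK5DD (log2 fold change 0.16, limma adjusted p = 0.213). FZD10 measured 49.3 and 39.6 in WT and 18.2 and 31.9 in MEK5DD, apart in the 2 groups but widely spread (-0.85, limma adjusted p = 0.0907). FZD8 measured 143 and 147 in WT and 112 and 124 in MEK5DD (-0.30, limma adjusted p = 0.199). FZD3 overlapped between groups, with 1438 and 1916 in MEK5DD around 1851 and 1810.2 in WT, and FZD9 stayed at 7.93 to 9.97 and was not tested. Of the co-receptors that WNT brings together with Frizzled, LRP6 overlapped between groups (2253 and 2365 in WT, 1961 and 2404 in MEK5DD). LRP5 measured 1018 and 1055 in WT and 923 and 1015 in MEK5DD. The LRP6 gene overlaps BCL2L14 on the opposite strand, and some of its reads may come from that gene. Without MEK5DD replicate 2 the limma adjusted p was 0.00232 for FZD10, 1.55e-07 for FZD3, 0.000456 for FZD7 and 0.000241 for LRP6. Without MEK5DD replicate 1 the log2 fold changes of FZD3 and LRP6 turned positive (0.07 and 0.06), so the directions of FZD3 and LRP6 rest on a single MEK5DD library.

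**Figure D2:**
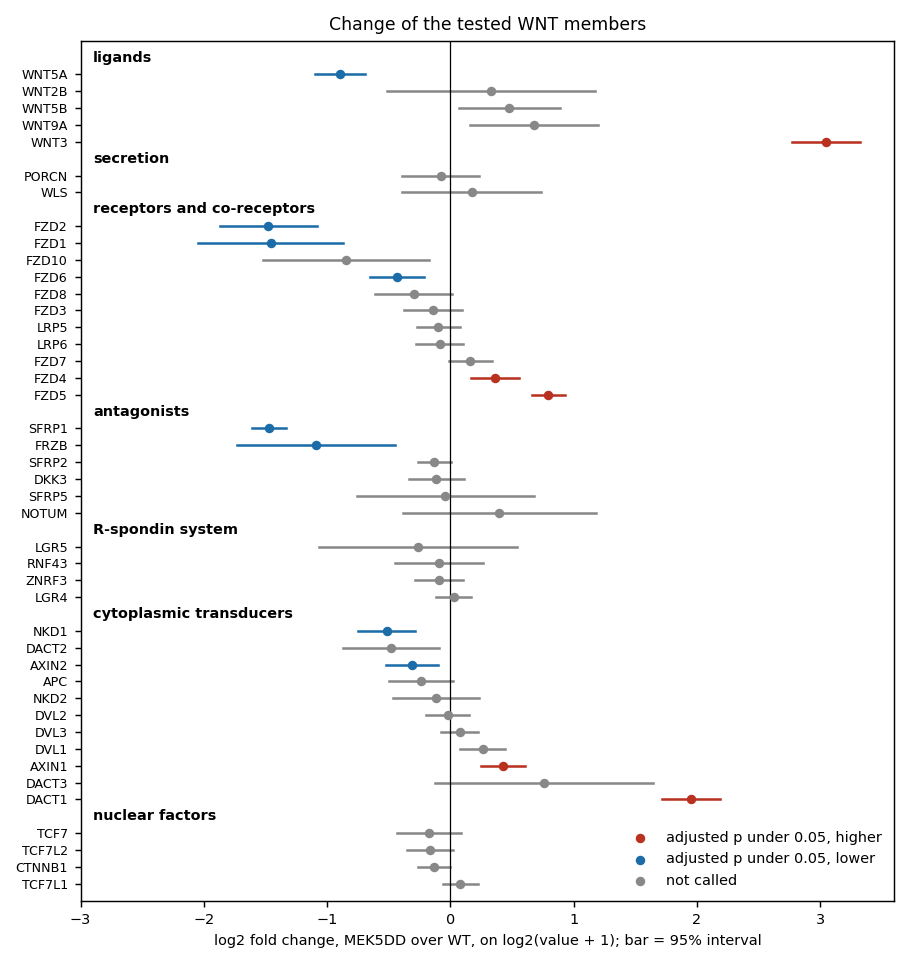
Log2 fold change of MEK5DD over WT for the 43 tested members, ordered within each role, with points for the estimate and bars for the 95% interval from limma, red for called higher, blue for called lower and grey for not called. WNT3 (3.05) and DACT1 (1.95) lie furthest to the right, FZD2 (-1.48), SFRP1 (-1.47) and FZD1 (-1.46) furthest to the left, and the intervals of all R-spondin members cross 0.

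Of 6 secreted antagonists 2 fell (33.3%, against 6.47% of all genes) and the other 4 were not called. SFRP1, a decoy that binds WNTs, measured 4926 and 4811 in WT and 1774 and 1737 in MEK5DD. All libraries were close to their group mean, and the log2 fold change was -1.47 (SE 0.06, limma adjusted p = 2.33e-08). FRZB, the related protein SFRP3, measured 38.8 and 44.8 in WT and 22.7 and 15.9 in MEK5DD (-1.09, SE 0.29, limma adjusted p = 0.0280). It was not called when WT replicate 1 (0.0603) or WT replicate 2 (0.176) was left out, nor with DESeq2 (0.145). SFRP1 lies on chromosome 8, 41261958 to 41309497, and FRZB on chromosome 2, 182833275 to 182867162 (GRCh38, minus strand).

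SFRP2, the most abundant antagonist, measured 8797 and 8986 in WT and 8459 and 7807 in MEK5DD (log2 fold change -0.13, 95% interval -0.26 to 0.0037, limma adjusted p = 0.192). It passed without MEK5DD replicate 1 (adjusted p = 0.000103), at a log2 fold change of -0.19. DKK3, a divergent member of the Dickkopf family, measured 307 and 323 in WT and 289.9 and 291 in MEK5DD (-0.11, limma adjusted p = 0.520). NOTUM, an enzyme that strips the lipid from WNTs and a feedback gene, was at 13.5 to 14.1 in WT and 17.9 to 19.1 in MEK5DD (0.40, limma adjusted p = 0.521). SFRP5 overlapped between groups, at 18.9 to 27.3 over the 4 libraries.

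In the R-spondin system 0 of 4 tested members was called by limma, against 14.2% of all genes. An unadjusted p under 0.05 was found for 0 of 4, against 4364 of all 15721 genes. The main receptor here was LGR4, at 2299 and 2374 in WT and 2332 and 2428 in MEK5DD (log2 fold change 0.026, 95% interval -0.11 to 0.17). LGR5, a stem cell marker of adult epithelia, was at low counts (15.9 and 17.7 in WT, 13.6 and 14.0 in MEK5DD). ZNRF3 and RNF43 are the ubiquitin ligases that remove Frizzleds from the surface. ZNRF3 measured 484 and 472 in WT and 459 and 438 in MEK5DD, with an interval of -0.29 to 0.10 for the log2 fold change. RNF43 overlapped between groups, at 93.4 and 108 in WT and 92.7 and 95.7 in MEK5DD. The RNF43 gene overlaps SUPT4H1 on the same strand, and some of its reads may come from that gene. The ligand gene RSPO4 stood at 3.99 to 15.0 and was not tested.

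Among 11 cytoplasmic members 2 rose (18.2%, against 7.69% of all genes) and 2 fell (18.2%, against 6.47%). DACT1, a dishevelled-binding protein that modulates WNT signalling, measured 157 and 177 in WT and 672 and 622 in MEK5DD. The groups were far apart (log2 fold change 1.95, SE 0.11, limma adjusted p = 3.12e-07). Neither DACT2 nor DACT3 was called. DACT2 measured 117 and 92.7 in WT and 73.6 and 74.8 in MEK5DD (-0.49, limma adjusted p = 0.0941), and DACT3 measured 12.3 and 8.33 in WT and 20.0 and 15.9 in MEK5DD (0.76, limma adjusted p = 0.252). DACT1 lies on chromosome 14, 58633967 to 58648321 (GRCh38, plus strand).

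The 2 axins, scaffolds of the destruction complex, were called in opposite directions. AXIN1, the constitutive scaffold, measured 1039 and 1008 in WT and 1469 and 1286 in MEK5DD (log2 fold change 0.42, SE 0.08, limma adjusted p = 0.00449). AXIN2, the classic feedback target of beta-catenin, measured 439.5 and 448 in WT and 368 and 347 in MEK5DD (-0.31, SE 0.10, limma adjusted p = 0.0484). The groups did not overlap for either gene. AXIN2 was close to the threshold, and it was not called when WT replicate 1 (0.257) or WT replicate 2 (0.324) was left out, nor with DESeq2 (0.189). NKD1, a feedback inhibitor that binds dishevelled, measured 348 and 358 in WT and 256 and 237 in MEK5DD (-0.52, SE 0.11, limma adjusted p = 0.00672). Its adjusted p was 0.0544 without WT replicate 2. AXIN1 lies on chromosome 16, 287440 to 352673 (minus strand), NKD1 on chromosome 16, 50548330 to 50649249 (plus strand), and AXIN2 on chromosome 17, 65528563 to 65561647 (GRCh38, minus strand).

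Dishevelleds and the rest of the cytoplasmic members were not called. DVL1 was nearest to the threshold, at 674 and 671 in WT and 842 and 769 in MEK5DD (log2 fold change 0.26, limma adjusted p = 0.0576), and it passed without MEK5DD replicate 2 (0.000474). DVL3 measured 1391 and 1381 in WT and 1457 and 1462 in MEK5DD, and DVL2 overlapped at 739 to 775. NKD2 also overlapped, at 104 to 122 in WT and 98.7 to 109 in MEK5DD. APC, the tumour suppressor of the destruction complex, measured 598 and 723 in WT and 501 and 619.9 in MEK5DD (-0.24, limma adjusted p = 0.213), and it too passed without MEK5DD replicate 2 (7.26e-05).

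No nuclear member was called: limma gave 0 of 4 tested, against 14.2% of all genes. An unadjusted p under 0.05 was found for 1, which was CTNNB1, against 4364 of all 15721 genes. CTNNB1, which encodes beta-catenin, measured 8443 and 8016 in WT and 7732 and 7269 in MEK5DD (log2 fold change -0.13, limma adjusted p = 0.178). It passed without MEK5DD replicate 1 (adjusted p = 0.000294). TCF7L1, the TCF factor known as a repressor in pluripotent cells, measured 2388 and 2564 in WT and 2661 and 2574 in MEK5DD (0.08, 95% interval -0.06 to 0.23). TCF7L2 measured 794 and 826 in WT and 758 and 686 in MEK5DD (-0.17, limma adjusted p = 0.221), and passed without MEK5DD replicate 1 (0.0147). TCF7 measured 205 and 214 in WT and 186 and 184 in MEK5DD (-0.17, limma adjusted p = 0.380). LEF1 stayed at 6.17 to 10.4 and was not tested. RNA levels do not measure the stability or location of the beta-catenin protein. CTNNB1 and TCF7 overlap the genes ULK4 and SKP1.

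The makeup of each family was compared per kilobase of annotated exon, which allows levels of different genes to be set side by side. WNT5A made up 63.0% ± 2.38 of the WNT ligand transcripts in WT and 19.4% ± 1.36 in MEK5DD (SD over the 2 libraries). WNT3 went from 12.3% ± 0.59 to 59.0% ± 0.96, and so became the most abundant of the 6 listed ligands. The summed ligand level per kilobase was 117 ± 1.95 in WT and 205 ± 9.91 in MEK5DD. No test was run on shares, which are given as a description.

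FZD5 and FZD7 had nearly equal shares of the Frizzled transcripts in WT, 27.2% ± 0.13 and 27.5% ± 1.05 (SD, n = 2). In MEK5DD they were 42.7% ± 1.64 and 28.0% ± 2.57. FZD2, the third Frizzled in WT at 15.3% ± 1.10, was at 5.09% ± 1.65 in MEK5DD. In plain counts, without the division by length, FZD2 was at 5.74% and 1.78% and stood behind FZD5, FZD3, FZD7, FZD6 and FZD4 in WT. The summed Frizzled level per kilobase was 1245 ± 9.69 in WT and 1373 ± 2.49 in MEK5DD. In the SFRP family the share of SFRP2 went from 80.7% ± 0.43 to 91.2% ± 0.25 and that of SFRP1 from 18.9% ± 0.50 to 8.41% ± 0.33, and in plain counts SFRP2 was at 64.3% and 81.9% and SFRP1 at 35.2% and 17.7%. The family sum went from 5425 ± 52.7 to 4390 ± 237 per kilobase. Among the DACT genes DACT1 held 58.2% ± 6.29 in WT and 87.3% ± 0.43 in MEK5DD. LGR4 held 99.1% of the LGR sum in WT and 99.3% in MEK5DD, and TCF7L1 79.7% and 82.4% of the TCF and LEF sum. The exon length counts all annotated exons, so a share depends on which isoforms the cells use.

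**Figure D3:**
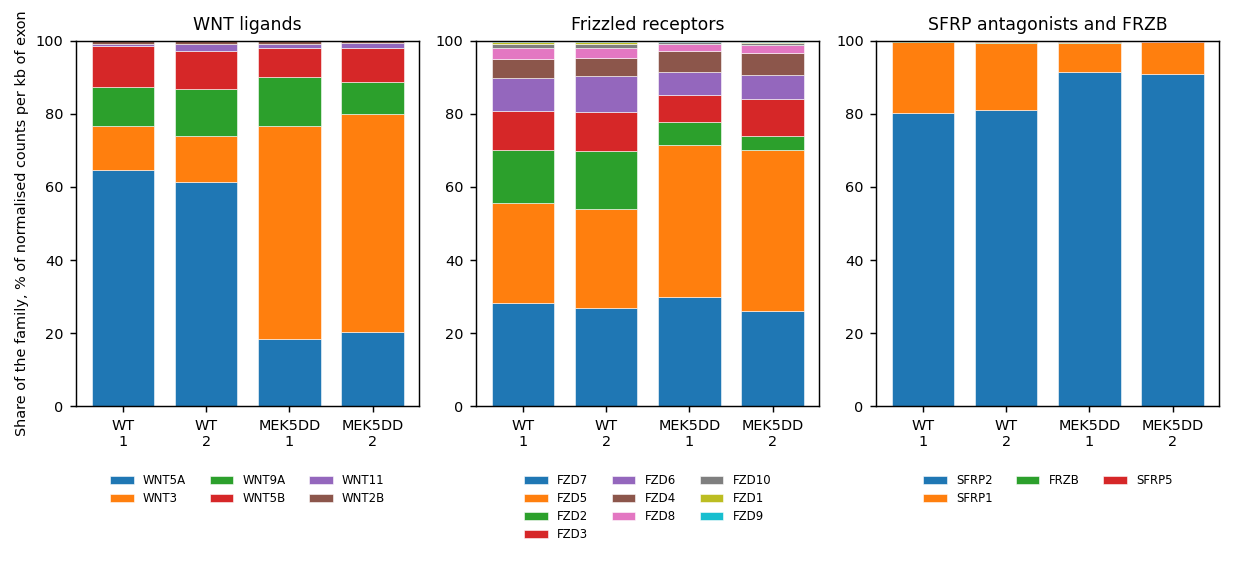
Share of each member in its family's summed level (per cent of normalised counts per kilobase of annotated exon) in each of the 4 libraries, for WNT ligands, Frizzleds, and SFRP antagonists with FRZB. WNT5A holds over 60% of the ligand bar in both WT libraries and WNT3 over 58% in both MEK5DD libraries, while the antagonist bars are mostly SFRP2 throughout.

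Neighbouring genes were measured for the 8 called members that changed at least 1.5-fold. Calls among them stand beside 14.2% of all genes called. At WNT3 the nearest tested genes, NSF at 5.0 kb and GOSR2 at 89.9 kb, had log2 fold changes of 0.06 and -0.11 and were not called. Neighbours of DACT1 (KIAA0586 and AL049873.1), FZD1 (CDK14 and MTERF1) and FRZB (DNAJC10 and NCKAP1) were not called either, nor were CACNA2D3 and ERC2 beside WNT5A. CDK14 passed without MEK5DD replicate 2 (2.64e-05), DNAJC10 without MEK5DD replicate 1 (0.00453) and ERC2 without MEK5DD replicate 1 (0.00819). At FZD5 both neighbours were higher, CCNYL1 at 0.7 kb (0.43, limma adjusted p = 0.00430) and PLEKHM3 at 51.7 kb (0.49, limma adjusted p = 0.0449). At FZD2 both were lower, GPATCH8 at 54.0 kb (-0.23, limma adjusted p = 0.0469) and MEIOC at 96.8 kb (-1.37, limma adjusted p = 0.0136). MEIOC was at low counts, 12.7 to 47.9 over the 4 libraries. At SFRP1 the distant ZMAT4, 364.1 kb away, was lower (-0.78, limma adjusted p = 0.000796) and GOLGA7 was not called. Without the mean-variance trend MEIOC (limma adjusted p = 0.104), CCNYL1 (0.0954), PLEKHM3 (0.223) and GPATCH8 (0.216) were not called. With DESeq2 PLEKHM3 (adjusted p = 0.127) and GPATCH8 (0.122) were not called. The call of PLEKHM3 was lost without WT replicate 2 (0.459), that of CCNYL1 without WT replicate 2 (0.0802), and that of GPATCH8 without WT replicate 1 (0.362) and WT replicate 2 (0.364).

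**Figure D4:**
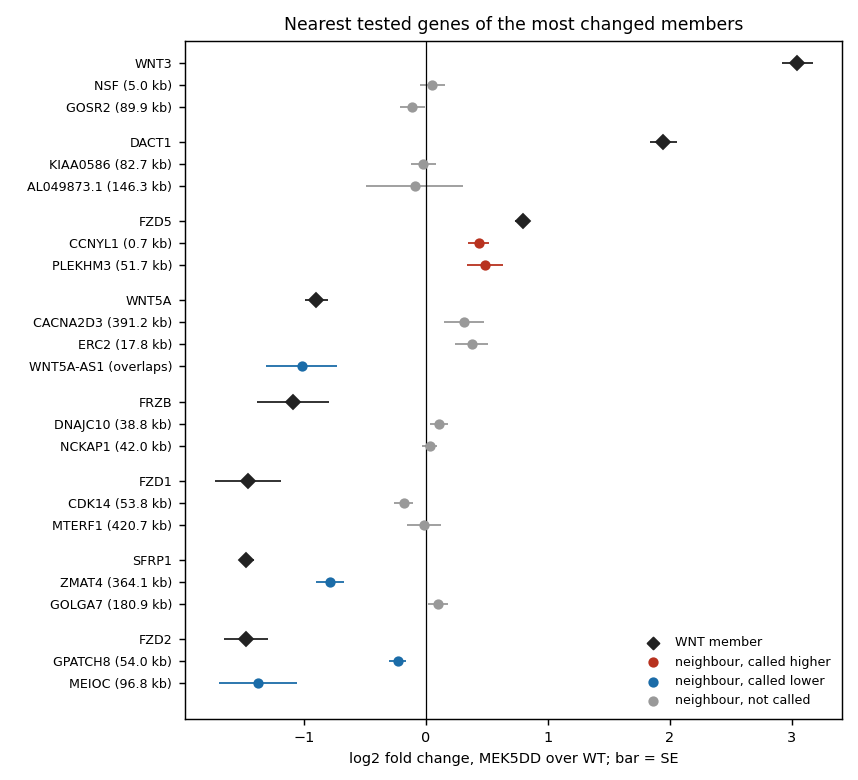
Log2 fold change (MEK5DD over WT, bars are the SE) of the 8 called members that changed at least 1.5-fold (black diamonds) and of the nearest tested gene on each side, with the gap in kb. WNT5A-AS1, which overlaps WNT5A, is also shown, without a gap. NSF, 5.0 kb from WNT3, lies at 0.06 while WNT3 lies at 3.05, and both neighbours of FZD2 lie to the left of 0.

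Beyond the members, 89 other genes of the pathway were grouped in 5 lists, of which 78 were tested and 21 were called (26.9%, against 14.2% of all genes), 9 higher (11.5%, against 7.69%) and 12 lower (15.4%, against 6.47%). Their median log2 fold change was 0.0037. All 5 lists were chosen with earlier results of these data known, so their called shares may partly reflect that choice. The destruction complex list, with the GSK3 and casein kinase 1 genes, had 1 of 18 higher and 1 lower, a called share of 11.1% that is below that of all genes. These were CXXC5, a dishevelled-binding inhibitor (0.29), and AMER1, an APC partner at the membrane (-0.36). Neither was called when WT replicate 1 (0.234 and 0.160) or WT replicate 2 (0.110 and 0.129) was left out. Of 13 tested cofactors of beta-catenin in the nucleus 3 fell (23.1%) and none was called higher, and 7 had an unadjusted p under 0.05, against 4364 of all 15721 genes. BCL9, EP300 and TLE1 fell by 0.25, 0.25 and 0.24 on the log2 scale, and none of the 3 was called when WT replicate 1 (adjusted p from 0.270 to 0.289) or WT replicate 2 (from 0.244 to 0.348) was left out.

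Surface modulators had 2 of 18 higher (11.1%, against 7.69% of all genes) and 3 lower (16.7%, against 6.47%). In all 27.8% were called, against 14.2% of all genes. GPC3, a heparan sulphate proteoglycan that binds WNTs, measured 644 and 710.3 in WT and 399 and 324 in MEK5DD (log2 fold change -0.91, SE 0.11, limma adjusted p = 0.000208). APCDD1, a membrane inhibitor of WNT, fell by 0.69 on the log2 scale and SERPINF1 fell by 0.51. KREMEN2, a receptor for Dickkopf proteins, rose (0.74), as did the proteoglycan gene GPC6 (0.35). KREMEN2 was not called without WT replicate 2 (0.109) or MEK5DD replicate 1 (0.174), APCDD1 not without WT replicate 2 (0.0905), GPC6 not without WT replicate 2 (0.137), and SERPINF1 not without WT replicate 1 (0.209).

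Among 21 genes of the beta-catenin-independent branch 3 rose (14.3%, against 7.69% of all genes) and 4 fell (19.0%, against 6.47%). In all 33.3% were called, against 14.2% of all genes. The rises were VANGL1 (0.46), PTK7 (0.30) and DAAM1 (0.28), and the calls of PTK7 and DAAM1 ended without WT replicate 1 (0.119 and 0.282) or WT replicate 2 (0.141 and 0.280). The cadherin genes CELSR2 and CELSR3, core parts of planar cell polarity, fell by 0.63 and 0.50 on the log2 scale. CELSR2 measured 1135 and 1214 in WT and 726 and 795 in MEK5DD, and CELSR3 measured 773 and 837 in WT and 586 and 548 in MEK5DD. PRICKLE2 fell by 0.83 and NFATC2 fell by 1.16, from low counts (46.9 to 65.2 in WT over the 2 genes). Leaving out WT replicate 1 (0.308) or WT replicate 2 (0.0849) ended the call of PRICKLE2, and leaving out WT replicate 1 (0.0592) or MEK5DD replicate 1 (0.185) that of NFATC2. The WNT5A receptor genes ROR1, ROR2 and RYK were not called (0.17, 0.07 and -0.10).

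Genes that canonical WNT is known to activate in other settings, AXIN2 and NKD1 apart, had 3 of 8 tested higher (37.5%) and 1 lower (12.5%). Over all genes 7.69% were called higher and 6.47% lower. CD44 measured 28.2 and 25.0 in WT and 66.3 and 91.7 in MEK5DD (log2 fold change 1.52, SE 0.24, limma adjusted p = 0.00135). The 2 groups did not overlap. MYC rose by 0.46 (limma adjusted p = 0.00164). CCND1 fell by 0.26 on the log2 scale, a call lost without WT replicate 1 (0.226) and WT replicate 2 (0.193). TBXT, the primitive streak gene and a direct WNT target, stood at 3.63 to 5.98 in all 4 libraries and was not tested. CD44 and MYC were thus higher in the libraries in which AXIN2, NKD1 and CCND1 were lower.

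Markers of the cell identity moved beside these genes, and their part in the WNT results was not tested. Fewer cells of a type and less RNA per cell cannot be told apart in bulk libraries. Counts in the marker lists stand beside 7.69% of all genes called higher and 6.47% called lower. The labelled identity was present: POU5F1 measured 38568 to 39715 in WT and 38116 to 42386 in MEK5DD, and of 10 pluripotency markers 1 rose (NANOG, 0.26) and 1 fell (SOX2, -0.20), with a summed level of 132822 to 135480 in WT and 129460 to 138918 in MEK5DD. NANOG and SOX2 were not called without WT replicate 1 (0.167 and 0.485) or without WT replicate 2 (0.262 and 0.350). Of 8 tested neuroectoderm markers 7 fell, in each of the 4 fits that left out 1 library, and 1 rose (NES, adjusted p = 0.0738 without WT replicate 1), with sums of 10490.1 to 10693 in WT and 9398 to 9975 in MEK5DD that are mostly NES. Of 5 tested primitive streak and mesoderm markers 2 rose (KDR and MIXL1), with sums of 2849 to 2951 in WT and 5638 to 5904 in MEK5DD that are mostly KDR. The definitive endoderm list had 1 of 4 higher and 2 lower (sums 202 to 215 and 115 to 126). The neural crest list had 1 of 3 higher and 1 lower (1753 to 1821 and 2442 to 2464, mostly ETS1, which rose). The amnion and trophoblast list had 1 of 5 higher and 3 lower (1195 to 1317 and 1174 to 1203, mostly TFAP2C, which was not called). Calls that ended in these lists were GATA4 without WT replicate 1 (0.202), WT replicate 2 (0.0790) or MEK5DD replicate 1 (0.110), HHEX (0.0547) and SOX9 (0.394) without WT replicate 2, and KRT7 without WT replicate 1 (0.225). Fibroblast and feeder markers had 3 of 4 tested higher. Their sums (7335 to 7417 in WT and 8822 to 9170 in MEK5DD) are mostly THY1, which was not called (log2 fold change 0.10). COL1A1, COL1A2 and TAGLN rose by 0.64, 0.75 and 1.02 on the log2 scale. DCN, LUM, COL3A1 and POSTN were not analysed here.

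MAP2K5, the gene carried by the virus, measured 344 and 315 in WT and 3382 and 3558 in MEK5DD, so the libraries matched their labels. MAPK7 (ERK5) itself was not called (log2 fold change 0.15, limma adjusted p = 0.398). Gene-level counts do not separate the introduced from the native transcript. Recovered reads were 14908486 to 17628945 per library. At this depth the low members have wide intervals, -0.51 to 1.17 for the log2 fold change of WNT2B and -1.06 to 0.54 for that of LGR5, and changes of that size were not detectable.

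The calls differed in how firmly they held. Over all genes, fits without a WT library called fewer genes and fits without a MEK5DD library called more. A lone library is there assumed to vary like the other group. Losses and gains in those fits need therefore not be particular to a gene. WNT3, DACT1, FZD5, WNT5A, SFRP1 and FZD1 (6 of 13) passed under all 15 alternatives, except that FZD1 was not tested once a mean of at least 50 was required. FZD2 and AXIN1 passed in each of the 4 fits that left out 1 library and were lost without the mean-variance trend (0.0767 and 0.121). The other 5 (FRZB, AXIN2, NKD1, FZD4 and FZD6) did not pass when WT replicate 2 was left out, and 3 of them (FRZB, AXIN2 and FZD4) not without WT replicate 1 either. The directions of all 13 held under every alternative run. The groups did not overlap for any of the 13, so leaving out 1 library could not have turned a direction. Changes of the variance model left the fold changes as they were. These runs therefore do not test the directions.

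**Figure D5:**
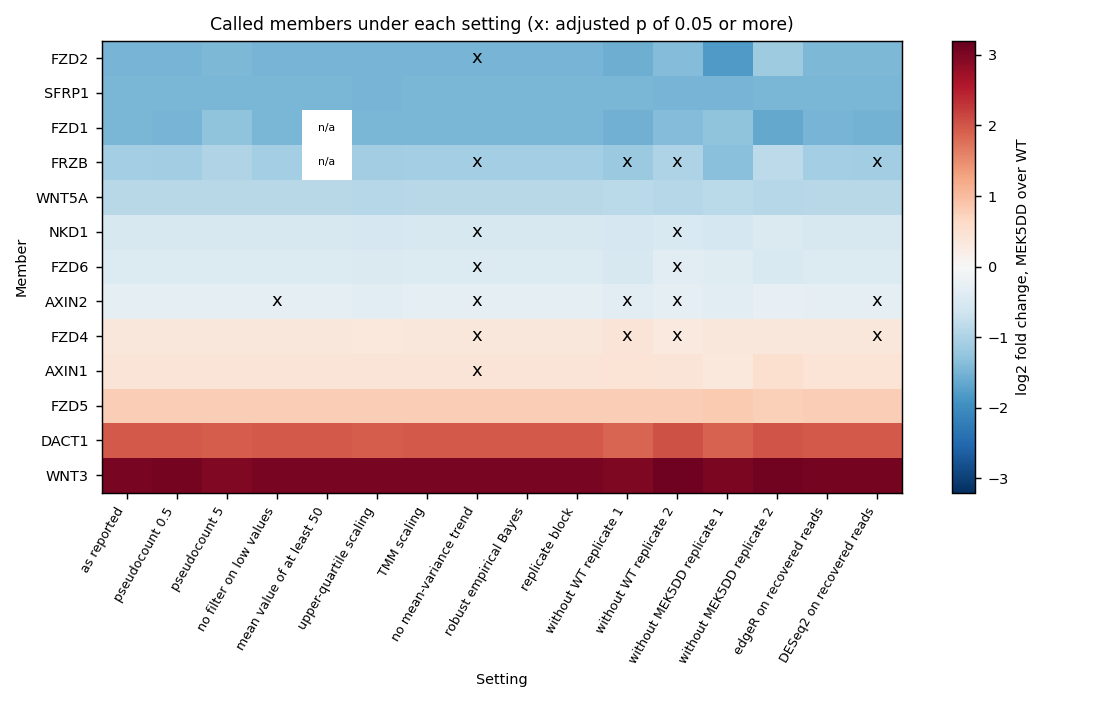
Log2 fold change (colour scale, MEK5DD over WT) of the 13 called members as reported and under each alternative, with x where the adjusted p was 0.05 or more and n/a where the gene was not tested. The lines of WNT3, DACT1, FZD5, WNT5A, SFRP1 and FZD1 carry no x, and the fit with no mean-variance trend has 7.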

How the data were processed

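RNA-seq counts of 2 WT and 2 MEK5DD libraries were used, grouped by the labels. Tools in the submitters' processing notes, with no role or order, are featureCounts 1.5.3, STAR, Trimmomatic 0.36 and DESeq2 1.26.0, and the build is hg38. The deposited values are a normalised signal, counts divided by a size factor per library. Their annotation and strand setting were not given in the sources used here. Division by the smallest value gave whole reads (tolerance 0.001) for 100% of 17472 genes. No gene was below 1 read in any library, and genes at 0 in a library are thus not analysed here.

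Values were tested as log2(value + 1) with limma 3.58.1 in R 4.3.3, which fitted a mean-variance trend to 15721 genes. Two-sided p-values were adjusted over all of these genes (Benjamini-Hochberg, threshold 0.05). In all, 2226 passed (1209 higher, 1017 lower). Fold changes are on the log2(value + 1) scale, which understates changes of low genes. Coordinates, overlaps and exon lengths came from GENCODE v29 (GRCh38). Where RefSeq gave several starts, the one with most GENCODE starts within 100 bases was used. The fit was tested on simulated data.

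Members and lists were chosen with earlier results of these data known. All members are named. Other genes named are MAP2K5, MAPK7, up to 4 called genes per pathway list, and the nearest tested genes of the called members that changed at least 1.5-fold. A gene that this rule takes is not reported here, though counts include it. GPC6, PTK7, VANGL1, DAAM1, ROR1, ROR2, RYK, TBXT and the markers are outside this rule, chosen once their values had been seen. As alternatives the pseudocount, filter, scaling and variance model were changed, with a replicate block, each library left out, and edgeR 4.0.16 and DESeq2 1.42.0 on the recovered reads. Family shares were added after seeing the data.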

Additional observations from a re-analysis of the deposited data

How the results depend on the processing

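The count of genes called (2226) was 439 without the mean-variance trend, 3349 with the replicate block, 1358 with DESeq2, and 1160 to 4629 with 1 library left out, where a lone library is assumed to vary like the other group. Members called higher (5) and lower (8) were 3 and 3 without the trend, 4 to 8 and 4 to 12 with 1 library left out, and 7 and 10 with the replicate block. Other pathway genes called (21) were 2 without the trend, 13 with DESeq2, 10 to 34 with 1 library left out and 27 with the block. The correlation of the deviations of same-numbered libraries was 0.0469 across 15721 genes and 0.0931 across the 12219 with a mean of at least 50 (genes are not replicates), and with 2 pairs the numbers were not taken as a pairing. With the block WNT9A (0.0106), FZD10 (0.0228), DVL1 (0.0185), APC (0.0478) and, beside WNT5A, ERC2 (0.0464) were also called. With 1 library left out, log2 fold changes of uncalled genes crossed 0, ranging from -0.0027 to 0.056 for LGR4, -0.20 to 0.012 for RNF43, -0.29 to 0.21 for SFRP5, -0.056 to 0.0098 for DVL2, -0.35 to 0.066 for FZD3, -0.24 to 0.058 for LRP6, -0.18 to 0.021 for PORCN, -0.018 to 0.082 for NCKAP1, -0.13 to 0.096 for KIAA0586, -0.63 to 0.45 for AL049873.1, -0.028 to 0.14 for NSF and -0.12 to 0.099 for MTERF1. AL049873.1 also turned with edgeR (0.0076). Of 30 uncalled members 10 were called under at least 1 alternative. In plain counts the change in family share was 43.5 points for WNT3, -3.96 for FZD2, -17.5 for SFRP1, 17.6 for SFRP2 and 9.60 for AXIN1, since these genes differ in length from their relatives. The cause of the other differences was not tested.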
